A study of Mus musculus with 11 samples.

Results

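The genes of MHC class II antigen presentation were followed in colonic RNA of germ-free and humanized mice. They are 10 of the 43346 genes in the deposited count table, taken by their symbols: H2-Aa, H2-Ab1 and H2-Eb1, which encode class II chains, Cd74, H2-DMa, H2-DMb1, H2-DMb2, H2-Oa, H2-Ob and Ciita. All mice were male Swiss Webster mice, an outbred stock, raised germ-free and studied at 8 to 10 weeks of age. The germ-free group (n = 5) stayed without microbiota, and the humanized group (n = 6) was gavaged at 4 to 5 weeks of age with 300 µL of stool suspension and then given 4 to 5 weeks for colonization. All 6 humanized mice received stool of the same human donor, so they represent 1 human microbiota. Polyadenylated RNA of the colon was sequenced as 101 bp paired-end reads. Because the whole tissue was sequenced, fewer cells of a type and less RNA per cell cannot be told apart.

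Class II molecules carry peptides from the endosomes to the cell surface, where CD4+ T cells read them. The invariant chain, encoded by Cd74, escorts the α and β chains to the endosome, proteases trim it to a short fragment in the peptide groove, and H2-DM exchanges this fragment for peptides while H2-DO holds H2-DM back. CIITA is recruited to the X and Y boxes of class II promoters by the RFX and NF-Y factors and switches the pathway on. In the intestine class II is known from dendritic cells, macrophages, B cells and group 3 innate lymphoid cells, and from epithelial cells exposed to interferon γ.

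The promoter sequences of the class II genes are shown because CIITA acts through boxes in this stretch. The part of these boxes in the levels of the members was not tested. RefSeq entries on GRCm38.p6 matched 7 members (H2-Aa, H2-Eb1, H2-DMa, H2-DMb1, H2-DMb2, H2-Oa and H2-Ob). The 100 bases printed end 36 bases before the RefSeq start of each gene and read 5′ to 3′ on its strand. Capitals mark AACNNATG, a motif taken for the X box, and ATTGG, a motif taken for the Y box. Both motifs were chosen after the sequences were viewed, so a promoter without AACNNATG may still have an X box.
H2-Eb1 (chr17:34305732-34305831, + strand): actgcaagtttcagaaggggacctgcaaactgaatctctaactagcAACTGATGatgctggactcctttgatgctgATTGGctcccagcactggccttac
H2-DMb2 (chr17:34145114-34145213, + strand): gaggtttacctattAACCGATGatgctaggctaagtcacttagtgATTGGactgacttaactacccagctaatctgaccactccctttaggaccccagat
H2-Ob (chr17:34238770-34238869, + strand): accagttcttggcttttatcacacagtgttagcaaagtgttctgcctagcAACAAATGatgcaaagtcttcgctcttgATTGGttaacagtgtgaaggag
H2-Aa (chr17:34287859-34287958, - strand): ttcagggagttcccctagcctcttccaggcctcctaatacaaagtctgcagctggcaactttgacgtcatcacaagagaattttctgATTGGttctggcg
H2-Oa (chr17:34092244-34092343, + strand): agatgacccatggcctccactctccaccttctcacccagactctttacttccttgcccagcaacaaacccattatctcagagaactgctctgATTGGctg

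In H2-Eb1, H2-DMb2 and H2-Ob the ATTGG motif followed AACNNATG after 22, 23 and 20 bases. H2-DMb1 had the same order with a gap of 23 bases, in a window that lies in an annotated first exon and is not printed. H2-Aa and H2-Oa held ATTGG without AACNNATG in the 250 bases before their start, which does not show that they lack an X box. The RefSeq starts given for H2-DMa lie at least 9664 bases from its start in the count table and were not used, and the start of H2-DMb2 lies 1942 bases inside the gene as deposited. Searched on both strands in the 250 bases before all 32851 RefSeq starts, ATTGG was present in 33.85% and AACNNATG in 7.71% of windows. AACNNATG followed by ATTGG on the same strand after 10 to 30 bases was present in 53 windows, or 0.161%. The motifs were chosen on these promoters and the range of gaps encloses theirs, so this share is no independent background for them. These are matches of letters in the C57BL/6J reference, from which the promoters of Swiss Webster mice may differ.

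Of the 10 members, 8 lie within 224 kb of chromosome 17 (mm10, 34092340 to 34316199). Ciita lies on chromosome 16 from 10488178 to 10527564, and Cd74 on chromosome 18 from 60803848 to 60812646. Counts on genes added up to 49097005 to 64148538 per germ-free mouse and 39125290 to 54219854 per humanized mouse, and each member had at least 11 counts in every mouse. Levels are given in RPKM, counts scaled by the deposited gene length and by library size after TMM correction, as mean ± SD. The log2-fold change (LFC) is that of humanized over germ-free mice, and its test was edgeR's exact test with Benjamini–Hochberg correction over 19863 genes, at a false discovery rate (FDR) below 0.01. Humanized mouse 5 was the lowest humanized mouse for several marker lists, although no member or ratio of members had a mouse past Dixon's criterion for a single far value. Its summed level over 7 fibroblast markers was 124 CPM (counts scaled to the TMM-corrected library size, without gene length), where the next lowest humanized mouse had 468 and germ-free mice had 1343 to 1807, while its 11 epithelial markers summed to 14645 CPM within the range of the humanized mice. Results are also given without this mouse. It was also the lowest humanized mouse for all 10 members, so leaving it out raised the LFC of each. The calls without it thus rest on a choice linked to the members' own values and are no independent support. Epcam, a defining gene of epithelium, had 1536 ± 68.9 CPM in germ-free and 1585 ± 254 CPM in humanized mice.

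Mean transcript levels of all 10 members were higher in humanized mice, and none of these differences was called. The humanized medians of H2-Oa and H2-Ob were lower, at 0.609 and 0.575 RPKM against 0.784 and 0.711 RPKM in germ-free mice. The LFC values lay between 0.14 for H2-Oa and 1.01 for H2-Eb1 with a median of 0.60, where the median of all tested genes was 0.01. An LFC above 0 was found for 10 of 10 members, against 51.2% of tested genes. The members moved together across mice, so these are not 10 separate results. At FDR below 0.01, 0 members were higher in humanized mice, where 9.2% of tested genes were, and 0 were lower, where 10.1% were (19.3% in both directions together). At FDR below 0.05 there were 2, H2-DMa and H2-DMb1 (background 14%), and 4 had an unadjusted p below 0.05 (background 18.5%). edgeR's quasi-likelihood test called 0 members at FDR below 0.01 (background 7.05%), with 4 at an unadjusted p below 0.05 (background 19.8%). With the replicate number as a block it called 0 as well, where 2.55% of tested genes were called in each direction. DESeq2 called 1 of 10, H2-DMa (FDR = 0.00752), where 11% of tested genes were called higher. For no member were the groups without overlap, which 18.4% of tested genes were, and no exact permutation test of a member gave a p below 0.05.

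The spread between humanized mice was wide. Over the members, the median coefficient of variation of RPKM was 10.8% for the germ-free and 60.0% for the humanized group, where all tested genes had 10.4% and 16.5%. It was larger in humanized mice for 10 of 10 members and for 80.2% of tested genes. Humanized mouse 5 had the lowest level of every member and was below every germ-free mouse for all 10. Humanized mouse 2 had the highest level of 8 members, and humanized mouse 3 that of H2-Oa and H2-Ob.

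**Figure D1:**
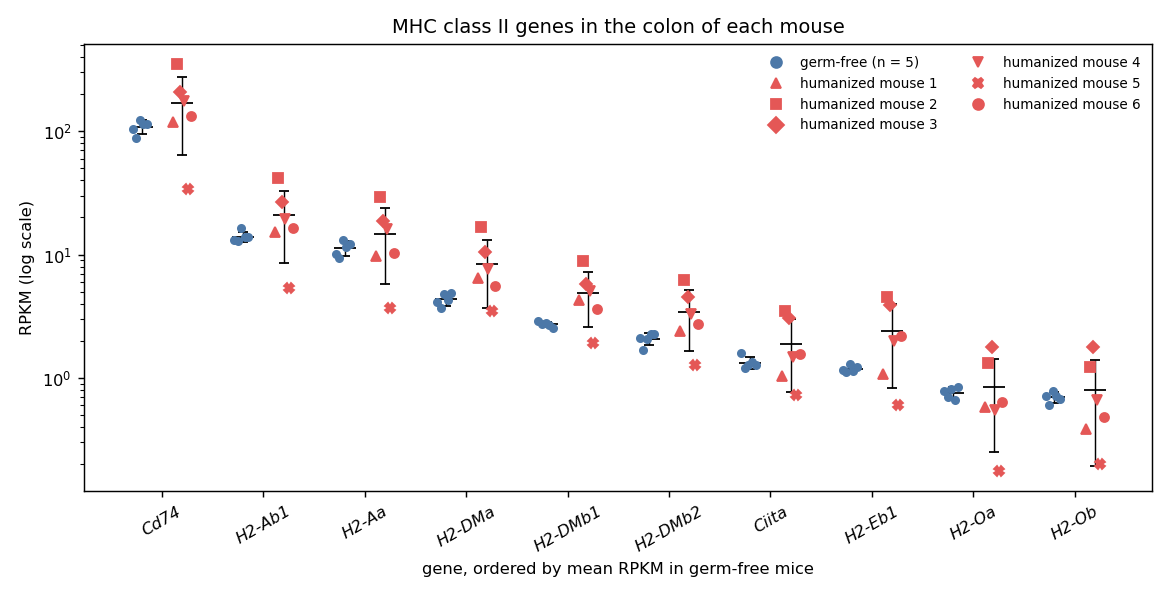
RPKM on a log scale of the 10 class II genes in each mouse, with the horizontal line and bars giving mean ± SD of 5 germ-free and 6 humanized mice. Humanized mouse 5 (crosses) lies below all germ-free mice for each gene, and humanized mouse 2 (squares) is the highest for 8 of them.

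Leaving out humanized mouse 5 changed the call of 6 members. Without it, H2-Ab1, H2-Eb1, Cd74, H2-DMa, H2-DMb1 and H2-DMb2 were higher in humanized mice at FDR below 0.01 in edgeR's exact test, where 9.52% of tested genes were, and the median LFC of the members was 0.81. H2-Aa, Ciita, H2-Oa and H2-Ob were not called without it. Leaving out humanized mouse 2 instead gave a median LFC of 0.27 and 0 calls, where 8.39% of tested genes were called higher. The LFC values were then 0.06 for H2-Aa, 0.25 for H2-Ab1, 0.73 for H2-Eb1, 0.29 for Cd74 and 0.24 for Ciita. They were 0.62 for H2-DMa (FDR = 0.0531), 0.59 for H2-DMb1 (FDR = 0.0811), 0.44 for H2-DMb2, 0.01 for H2-Ob and −0.04 for H2-Oa. The size and the call of the class II difference thus rested on which of these humanized mice were included.

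**Figure D2:**
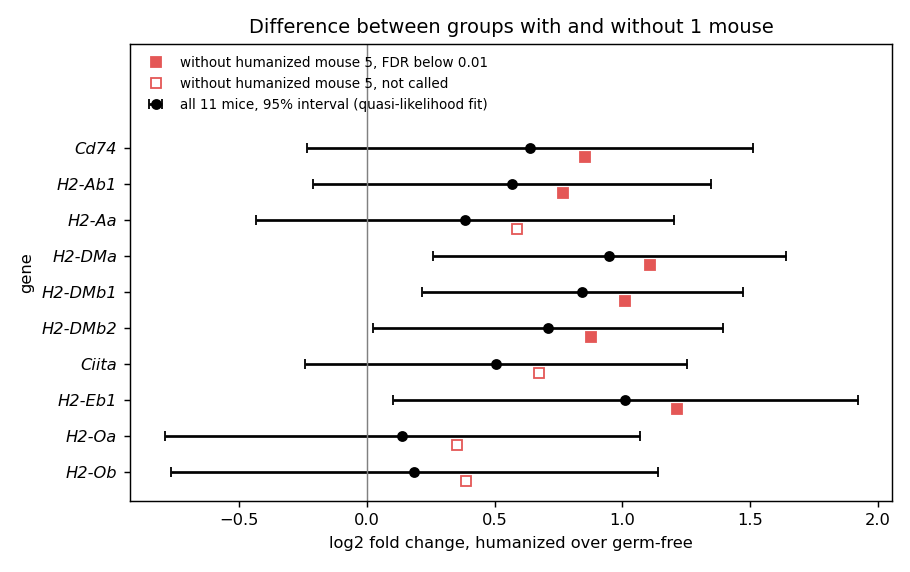
LFC of humanized over germ-free mice for each class II gene, with black circles and 95% intervals of the quasi-likelihood fit for all 11 mice and squares for the fit without humanized mouse 5. The intervals of H2-DMa, H2-DMb1, H2-DMb2 and H2-Eb1 lie above 0, and 6 squares are filled, for FDR below 0.01 in the exact test.

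Of the members, the peptide exchange genes H2-DMa and H2-DMb1 had the lowest FDR values. H2-DMa, the α chain of H2-DM (chromosome 17, 34135182 to 34139101), had 4.17, 3.67, 4.75, 4.25 and 4.91 RPKM in germ-free mice 1 to 5. It had 6.46, 16.8, 10.5, 7.61, 3.49 and 5.59 RPKM in humanized mice 1 to 6. Thus 5 of 6 humanized mice were above all germ-free mice and humanized mouse 5 was below them. The means were 4.35 ± 0.496 and 8.41 ± 4.71 RPKM (LFC 0.95, standard error 0.32, FDR = 0.0173 in the exact test), and without humanized mouse 5 the LFC was 1.11 (FDR = 3.14e-04). In the GENCODE annotation of mm10, 10.4% of the exon bases of H2-DMa also belong to Brd2 on the opposite strand, although the deposited positions of these genes do not overlap. Brd2, which encodes a chromatin reader, had 290 CPM in germ-free and 299.9 CPM in humanized mice (LFC 0.05, FDR = 0.688), and the part of its reads in the H2-DMa counts was not tested.

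H2-DMb1, one of 2 mouse β chain genes of H2-DM (34153072 to 34160230), had 2.88, 2.75, 2.81, 2.67 and 2.53 RPKM in germ-free mice. Relative to the mean this was the narrowest spread of the members, with a coefficient of variation of 4.91%. H2-DMb1 had 4.27, 8.81, 5.74, 5.07, 1.91 and 3.64 RPKM in humanized mice. Again humanized mice 1, 2, 3, 4 and 6 were above all germ-free mice and mouse 5 below them (LFC 0.84, standard error 0.29, FDR = 0.0253; without mouse 5, 1.01 and FDR = 9.15e-05). H2-DMb2, the other β chain gene (34143307 to 34151553), had 1.70 to 2.28 RPKM in germ-free mice and 1.27, 3.01 and 6.25 RPKM as lowest, median and highest of the humanized mice. Its overlap was of the same kind, with 5 of 6 humanized mice above all germ-free mice (LFC 0.71, standard error 0.32, FDR = 0.0997; without mouse 5, 0.88 and FDR = 0.00362). The 2 β chain genes are close paralogs: of all stretches of 101 bases in their longest annotated transcripts, 13.5% of H2-DMb1 and 12.7% of H2-DMb2 also occur in the other, so their reads may be exchanged.

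Among the chains that present peptide, H2-Eb1 differed most. This β chain of the E molecule (34305877 to 34316199) had 1.15, 1.11, 1.30, 1.14 and 1.22 RPKM in germ-free mice and 1.08, 4.55, 3.94, 1.98, 0.604 and 2.21 RPKM in humanized mice. Of the humanized mice 4 were above and 2 below all germ-free mice (LFC 1.01, standard error 0.42, FDR = 0.0661; without mouse 5, 1.21 and FDR = 0.00207). H2-Ab1, the β chain of the A molecule (34263209 to 34269418), had 12.8 to 16.3 RPKM in germ-free mice, and 5.40, 18.04 and 41.5 RPKM as lowest, median and highest of the humanized mice. It differed by an LFC of 0.57 (standard error 0.36, FDR = 0.248), with 4 humanized mice above the germ-free range and 1 below it, and without mouse 5 by 0.77 (FDR = 0.00613).

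H2-Aa, its α chain partner (34282744 to 34287827), had 9.31 to 13.1 RPKM in germ-free mice and 3.70, 13.3 and 29.6 RPKM as lowest, median and highest of the humanized mice. Only 3 humanized mice were above the germ-free range, and the LFC of 0.39 had a 95% interval from −0.43 to 1.20 (FDR = 0.496; without mouse 5, 0.59 and FDR = 0.0736). The reference carries a broken gene for the α chain of the E molecule, listed as H2-Ea-ps, with 1.08 ± 0.334 CPM in germ-free and 1.68 ± 1.20 CPM in humanized mice (LFC 0.64, standard error 0.47, FDR = 0.361).

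Cd74, the invariant chain, was the most abundant member, at the 98.0 percentile of the tested genes in germ-free mice. It had 104, 88.3, 124, 115 and 115 RPKM in germ-free mice and 118, 349, 209, 177, 34.1 and 133 RPKM in humanized mice. The 10.2-fold range between humanized mice 5 and 2 was the widest of the members, against 1.402-fold among germ-free mice. The means of 109 ± 13.6 and 170 ± 106 RPKM differed by less than this spread (LFC 0.64, standard error 0.40, FDR = 0.243; without mouse 5, 0.85 and FDR = 0.00340).

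H2-DO, the inhibitor of H2-DM, showed the smallest LFC values. H2-Oa, its α chain (34092340 to 34095234), had 0.784, 0.698, 0.820, 0.658 and 0.849 RPKM in germ-free mice and 0.580, 1.33, 1.77, 0.548, 0.176 and 0.638 RPKM in humanized mice. Here 4 of 6 humanized mice were below all germ-free mice and humanized mice 2 and 3 above them (LFC 0.14, 95% interval −0.79 to 1.07, FDR = 0.870). H2-Ob, its β chain (34238903 to 34245907), had 0.719, 0.600, 0.781, 0.711 and 0.676 RPKM in germ-free mice and 0.389, 1.24, 1.79, 0.668, 0.200 and 0.481 RPKM in humanized mice. Its pattern was much the same, with humanized mice 2 and 3 above and 1, 5 and 6 below the germ-free range (LFC 0.19, 95% interval −0.77 to 1.14, FDR = 0.818). Of the exon bases of H2-Oa, 22.8% also belong to BC051537 on the opposite strand, which the library kit does not tell apart.

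Ciita, the coactivator of the whole set, had 1.20 to 1.58 RPKM in germ-free mice and 0.725, 1.52 and 3.48 RPKM as lowest, median and highest of the humanized mice. Humanized mice 2 and 3 were above the germ-free range, mice 1 and 5 below it, and the LFC was 0.50 (95% interval −0.24 to 1.25, FDR = 0.312; without mouse 5, 0.67 and FDR = 0.0713).

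The order of the members by level per length hardly differed between the groups. In germ-free mice it was Cd74, H2-Ab1, H2-Aa, H2-DMa, H2-DMb1, H2-DMb2, Ciita, H2-Eb1, H2-Oa and H2-Ob. The neighbours H2-Ab1 and H2-Aa, Ciita and H2-Eb1, and H2-Oa and H2-Ob overlapped in their ranges over germ-free mice, although H2-Ab1 was above H2-Aa within each of the 5 mice. In humanized mice H2-Eb1 stood above Ciita, in 5 of 6 mice, and the rest of the order of means was the same. All neighbours overlapped in their ranges over humanized mice, and H2-Oa was above H2-Ob in 3 of 6. Cd74 exceeded H2-Ab1 by 7.80-fold in germ-free and 8.17-fold in humanized mice, on the RPKM scale.

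Ratios of counts within a library do not depend on how libraries are scaled. Of 8 ratios between members, none passed an exact permutation test at an adjusted p below 0.05. The ratio of H2-DMa to H2-Oa, an exchange chain over an inhibitor chain, was 6.56 to 8.06 in germ-free mice, and 7.43 as the lowest, 14.8 as the median and 24.7 as the highest of the humanized mice. It was higher in 5 of 6 humanized mice than in all germ-free mice, by 1.97-fold on average, with a two-sided exact permutation p of 0.00866 and an adjusted p of 0.0693. The highest of these ratios was that of humanized mouse 5, where H2-Oa had 11 counts. Without that mouse the log2 difference was 0.82 in place of 0.98 (exact permutation p = 0.0159, adjusted p = 0.127).

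The ratio of H2-Eb1 to H2-Ab1 was higher in 5 of 6 humanized mice than in all germ-free mice, with a log2 difference of 0.37 (exact permutation p = 0.0584, adjusted p = 0.156). The ratio of H2-Aa to H2-Ab1 was lower in 5 of 6 (log2 difference −0.20, exact permutation p = 0.0346, adjusted p = 0.139). The ratio of Cd74 to H2-Ab1 lay between 5.94 and 7.20 in germ-free and between 5.43 and 7.77 in humanized mice, with a log2 difference of 0.01. For H2-DMb1 to H2-DMb2, H2-DMa to H2-DMb1, H2-Ob to H2-Oa and Ciita to H2-Ab1 the log2 differences were 0.15, 0.08, 0.03 and −0.04.

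**Figure D3:**
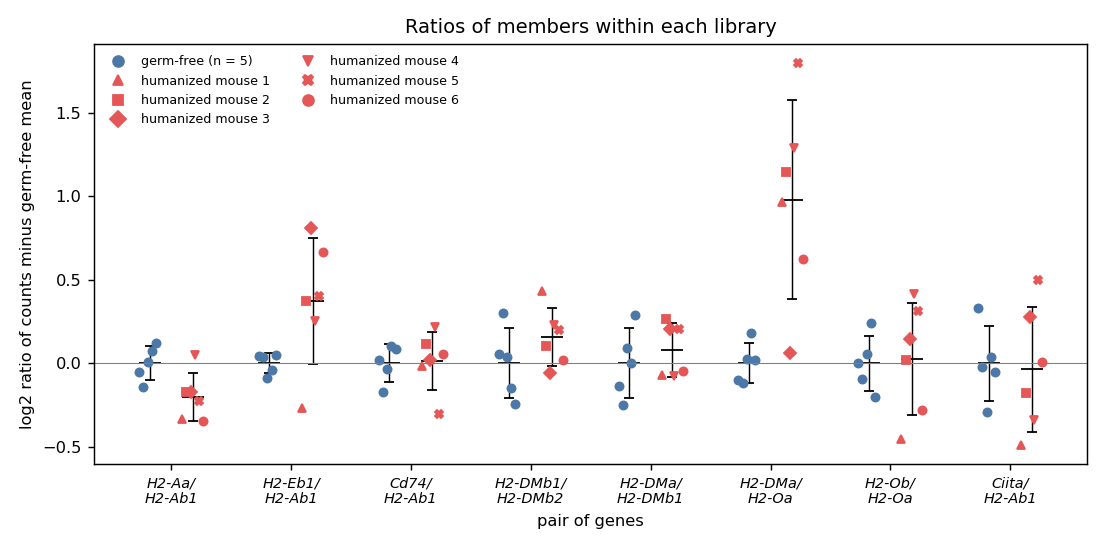
Log2 ratio of counts of 2 members within each library, minus the germ-free mean of that ratio, with mean ± SD of 5 germ-free and 6 humanized mice. H2-DMa over H2-Oa has the largest shift, with 5 of 6 humanized mice above all germ-free mice, and Cd74 over H2-Ab1 is centred near 0 in both groups.

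The members moved together from mouse to mouse. After the mean of each group was taken from log2 CPM, the correlation of a member with the mean of the other members over the 11 mice lay between 0.94 for H2-Oa and 0.99 for H2-DMb2. These mice share the wide range of the humanized group, with humanized mouse 5 at one end and humanized mice 2 and 3 at the other, so the values are given as a description.

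The same mice were extreme for leukocyte markers. The 10 members summed to 186 to 253 CPM in germ-free mice, and to 240, 696, 435, 351, 79.9 and 267 CPM in humanized mice 1 to 6. The 8 pan-leukocyte markers summed to 104 to 119 CPM in germ-free mice and to 100, 202, 206, 134, 74.5 and 126 CPM in humanized mice. Both sums were thus lowest in mouse 5 and high in mice 2 and 3, and of the leukocyte markers 0 of 8 passed edgeR's exact test (median LFC 0.33, and Ptprc, which encodes CD45, 0.40 with FDR = 0.273). Without humanized mouse 5, Cd52 and Rac2 passed it (LFC 0.69 each). When libraries were scaled to these 8 genes in place of TMM, 7 members had an LFC above 0 and their median was 0.16, where the median of all tested genes was −0.15. H2-DMa had 0.55, H2-Eb1 0.53 and Cd74 0.19 on this scale, and H2-Aa, H2-Ob and H2-Oa had −0.06, −0.32 and −0.34. On this scale 0 members were called, where 1.6% of tested genes were higher and 9.69% lower. With libraries scaled to 11 epithelial markers, the median of the members was 0.44 and that of all genes −0.23, and 9 members had an LFC above 0, all except H2-Oa at −0.01. Again 0 members were called, where 2.76% of tested genes were higher and 15.6% lower. With total counts 0 members were called too, where 3.89% of tested genes were higher and 18.2% lower. The part of leukocyte content in the class II levels was not tested.

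**Figure D4:**
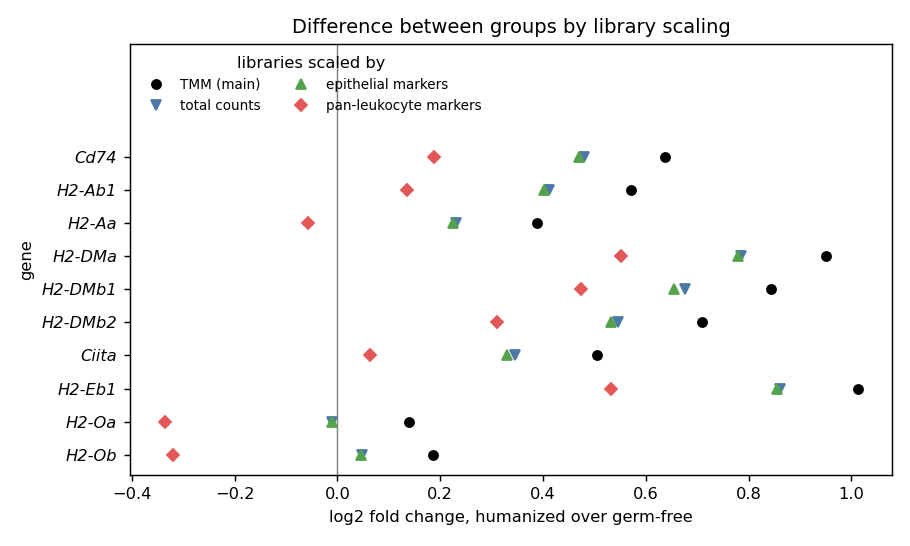
LFC of humanized over germ-free mice for each class II gene under 4 scalings of the libraries. Every gene lies lower with pan-leukocyte scaling than with TMM, H2-Aa, H2-Oa and H2-Ob cross 0 with it, and H2-Oa lies at −0.01 with total counts and with epithelial markers.

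Markers of the cell types that carry class II did not move in one direction. Of 11 tested B cell markers, 10 had an LFC above 0 and 1 was higher at FDR below 0.01, where 9.2% of tested genes were. This was Cd79a of the B cell receptor (LFC 1.62, standard error 0.51, FDR = 0.00911 in the exact test), with an FDR of 0.0318 in the quasi-likelihood test. The median LFC of the list was 0.995. Ms4a1, which encodes CD20 and also defines B cells, had an LFC of 1.59 (FDR = 0.0312; without humanized mouse 5, 1.77 and FDR = 0.00798). The B cell markers summed to 7.22 to 15.8 CPM in germ-free mice. They summed to 42.9 and 57.5 CPM in humanized mice 2 and 3, and to 8.27 to 13.3 CPM in the other 4 humanized mice. The difference in this sum thus lay in the same mice that were highest for class II. That of Cd79a was not limited to these mice, as 4 humanized mice were above all germ-free mice and 0 below them. The humanized median of Cd79a was 2.41 RPKM, against a germ-free maximum of 1.38 RPKM. For Ms4a1, 3 humanized mice were above all germ-free mice and 0 below them.

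Of 11 tested dendritic cell markers, 2 were lower and 0 higher in humanized mice, where 10.1% of tested genes were lower. The median LFC of the list was −0.50 (−0.25 without humanized mouse 5). The genes called were Zbtb46, a factor of classical dendritic cells (LFC −1.10, standard error 0.34, FDR = 0.00959), and Siglech, a receptor of plasmacytoid dendritic cells (LFC −1.58, standard error 0.37, FDR = 4.43e-04). In the quasi-likelihood test Zbtb46 had an FDR of 0.0290 and Siglech one of 0.00880. Endothelial markers had a median LFC of −0.86, and which cells the Zbtb46 reads came from was not tested. Flt3 (LFC −0.22, FDR = 0.706) and Itgax, which encodes CD11c (LFC 0.19, FDR = 0.768), were not called, and without humanized mouse 5 Fscn1 was lower as well (LFC −0.68). The sum of the list was 32.7 to 40.7 CPM in germ-free mice and 7.89 CPM in humanized mouse 5, against 18.3 to 42.5 CPM in the other humanized mice.

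Of 11 tested macrophage markers, the efferocytosis receptor gene Mertk was higher (LFC 0.34, FDR = 0.00134) and the scavenger receptor gene Cd163 lower (LFC −1.58, FDR = 0.00454), with a median LFC of −0.46 (−0.28 without humanized mouse 5). Csf1r, the receptor of the macrophage growth factor, had an LFC of −0.53 (FDR = 0.127). The macrophage list summed to 176 to 227 CPM in germ-free mice and to 125 CPM in humanized mouse 5, its lowest, and to 144 to 227 CPM in the others. Among markers of group 3 innate lymphoid cells, Ncr1 (LFC −1.07, FDR = 2.97e-05) was lower, 1 of 5 tested, and 0 were higher. The lowest of the humanized mice for the B cell, dendritic cell and macrophage sums was mouse 5, as for class II, and the part of these cell types in the class II levels was not tested.

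**Figure D5:**
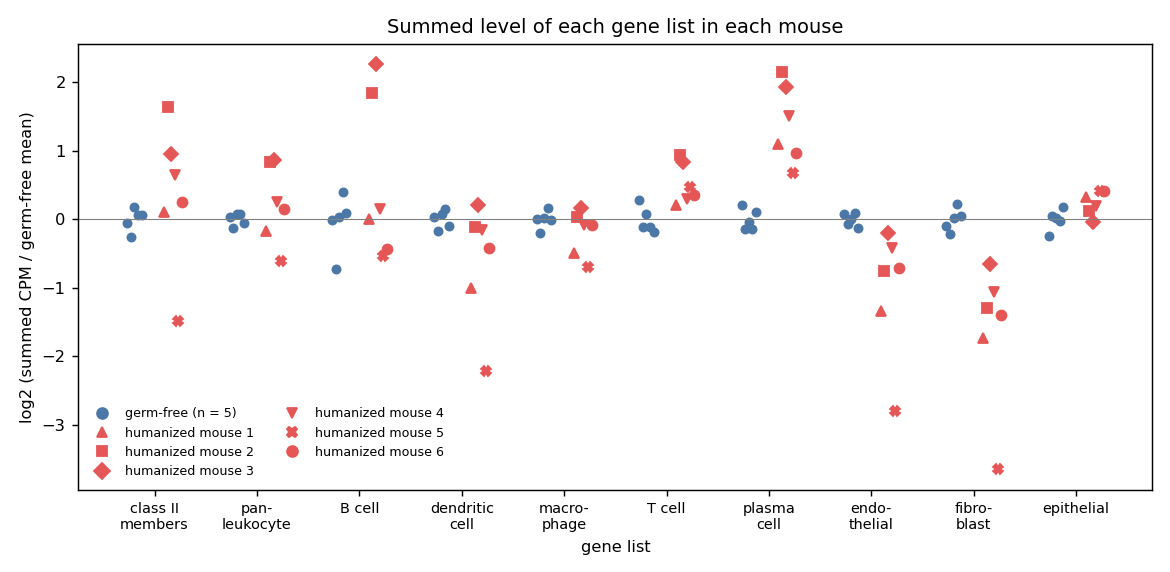
Summed CPM of each gene list in each mouse, as log2 of its ratio to the germ-free mean. Humanized mouse 5 (crosses) is the lowest humanized mouse for the class II, pan-leukocyte, B cell, dendritic cell, macrophage, plasma cell, endothelial and fibroblast sums, but not for the T cell and epithelial sums.

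The other cell type lists gave different counts. Plasma cell markers were higher for 6 of 7 genes, led by Mzb1, Tnfrsf17, Igj and Derl3 (LFC 3.49, 3.32, 3.21 and 2.28), and T cell markers for 6 of 10, led by Cd8a, Cd3d, Trac and Cd3e (LFC 1.74, 1.37, 1.29 and 1.15). Cd4, the coreceptor for class II, had an LFC of 0.24 (FDR = 0.689). Epithelial markers were higher for 2 of 11 genes, Krt18 (LFC 0.48) and Lgals4 (0.46). Smooth muscle markers were lower for 9 of 9 genes, fibroblast markers for 5 of 7 and endothelial markers for 0 of 6, with median LFC values of −2.03, −1.38 and −0.86. Of all tested genes, 9.2% were higher and 10.1% lower. Over all lists other than the members, the exact test called 43 genes and the quasi-likelihood test 31. Without humanized mouse 5, 7 of 7 fibroblast and 4 of 6 endothelial markers were lower, the latter Pecam1, Cdh5, Tek and Egfl7.

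Of the genes upstream of class II, those of the promoter complex did not differ by the test. For the RFX, NF-Y, CREB and coactivator genes, 0 of 10 passed in either direction at FDR below 0.01 in edgeR's exact test, with a median LFC of 0.05, and 1 was lower without humanized mouse 5, the coactivator gene Ep300 (LFC −0.23, FDR = 0.00963). The RFX subunits Rfx5, Rfxank and Rfxap had LFC values of 0.03 (FDR = 0.880), 0.07 (FDR = 0.624) and −0.21 (FDR = 0.116). Of 13 tested genes that induce or repress Ciita, 4 were higher and 0 lower. They were Irf1, an interferon-induced factor that acts on the Ciita promoter (113 ± 6.93 against 183 ± 23.4 CPM, LFC 0.70, standard error 0.09, FDR = 9.51e-11), Irf8 (LFC 0.25, FDR = 0.00198), and Irf4 and Prdm1 (LFC 1.76 and 1.14), which are also on the list of plasma cell markers, where Prdm1 is known to silence Ciita. In the quasi-likelihood test Irf4 had an FDR of 0.0108, while Irf1, Irf8 and Prdm1 stayed below 0.01. Ifng, which encodes interferon γ, was too low to be tested. Without humanized mouse 5, Ifngr1, a chain of the interferon γ receptor, was lower (LFC −0.28, FDR = 0.00186).

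Of 15 interferon γ response genes outside the class II set, 1 was higher, where 9.2% of tested genes were. This was the chemokine gene Cxcl9 (LFC 2.44, standard error 0.56, FDR = 2.43e-04), and the median LFC of the list was 0.28. Without humanized mouse 5 the GTPase gene Igtp was higher too (LFC 0.80, FDR = 0.00246) and the median was 0.49. The genes that process the invariant chain and antigen were higher for 4 of 10, where 9.2% of tested genes were, and lower for 0. Sppl2a, the intramembrane protease that removes the last invariant chain stub, had 207 ± 12.9 CPM without microbiota and 501 ± 81.6 CPM with it (LFC 1.28, standard error 0.11, FDR = 2.87e-25). The protease genes Ctsl, Ctsz and Ctsd passed with LFC values of 0.68, 0.52 and 0.34. Ctss, the protease that trims the invariant chain in many antigen presenting cells, had an LFC of −0.02 (FDR = 0.923), and the thiol reductase gene Ifi30 one of 0.24 (FDR = 0.0199; without humanized mouse 5, 0.26 and FDR = 0.00635). Summed over this list, every humanized mouse was above the germ-free range of 1434 to 1513 CPM, and humanized mouse 5 was the highest at 2168 CPM, opposite to its place for the members. Sppl2a rose most within this sum. The abundant Ctsb and Ctss had means of 421 and 266 CPM in germ-free and 442 and 262 CPM in humanized mice. For the partners of class II at the contact with T cells, 0 of 12 passed in either direction, although Ctla4 and Icos were higher without humanized mouse 5 (LFC 1.71 and 1.13), and for the turnover genes March1, March8 and Cd83, 0 of 3 passed.

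In the stretch of chromosome 17 between the outermost members, 8 other genes were tested. Psmb8, an immunoproteasome subunit, was higher in humanized mice with 26.5 ± 4.43 against 49.5 ± 8.60 CPM (LFC 0.90, standard error 0.13, FDR = 1.09e-08), and Gm20496, whose deposited position overlaps that of Psmb8, had an LFC of 0.77 (FDR = 1.40e-06). The class I peptide transporter genes Tap1 and Tap2 had LFC values of 0.30 (FDR = 0.128) and 0.25 (FDR = 0.0118), and Psmb9 one of 0.21 (FDR = 0.177). Gm15821, BC051537 and Brd2 had 0.25, −0.09 and 0.05, none called, and the median LFC of the 8 genes was 0.25. Of the class I processing list, which shares 5 of these genes and adds Tapbp, 1 of 6 passed. Just beyond H2-Eb1 lies H2-Eb2 (34325665 to 34340229), an E β chain paralog. It was the only class II chain gene outside the members that passed, with 0.332 ± 0.153 against 1.42 ± 1.19 CPM (LFC 2.08, standard error 0.57, FDR = 0.00243 in the exact test), but the quasi-likelihood test gave an FDR of 0.0171. In H2-Eb2, 4 of 6 humanized mice were above all germ-free mice and the groups overlapped. Its promoter is shown for comparison with H2-Eb1, as both have AACTGATG followed by ATTGG after 22 bases, although 130 and 89 bases before the RefSeq start.
H2-Eb2 (chr17:34325540-34325639, + strand): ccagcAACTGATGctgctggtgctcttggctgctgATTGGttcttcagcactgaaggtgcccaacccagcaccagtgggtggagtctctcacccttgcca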

How the data were processed

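Colonic RNA of 5 germ-free and 6 humanized mice was sequenced with the Illumina TruSeq v2 kit, which does not mark strand. Per the labels and the methods of the study, paired-end reads of 101 bp were aligned by the authors to mm10, using TopHat2 (version 2.1.0) over Bowtie2 (version 2.2.3), and counted per gene with featureCounts (Subread 1.4.6-p5). The deposited values are raw counts, with a position and a length for each gene; how the length was computed and which release of the mm10 Ensembl annotation was used are not given in the sources used here. mm10 is the C57BL/6J genome, class II genes are polymorphic and Swiss Webster mice are outbred, so reads of other alleles may align less well; the effect on these counts was not tested.

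The statistics were run in R 4.3.3, using edgeR 4.0.16 and DESeq2 1.42.0. filterByExpr (minimum count 10, minimum total 15) kept 19863 genes, libraries were scaled with TMM, and the exact test of edgeR compared the groups, with an FDR (Benjamini–Hochberg) below 0.01 as the threshold. The standard error and 95% interval of an LFC come from the quasi-likelihood fit. Ratios and single members were tested by two-sided exact permutation over all 462 splits of the mice, for which the smallest p is 0.00216, with correction over 8 ratios. Counts of a gene varied between mice of a group far more than counting alone gives. The table has no other per-sample columns.

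Mice were grouped by their labels. The replicate numbers refer to different animals, and the labels do not say what equal numbers share. Same-numbered mice had correlations of −0.13 to 0.09, which cannot settle whether they share a litter, cage or run. They were not treated as pairs. No sequencing batch is named, so none could be compared. The members and the gene lists were chosen with earlier results of these data known. Named beside the members were, for each list, up to 4 genes at FDR below 0.01 with a mean CPM of at least 1 and the largest absolute LFC, fixed defining genes and key regulators, the tested genes of the class II region, and the 8 genes most like the members. Cd4, Ctsb, Tapbp, the turnover genes and the genes called only without humanized mouse 5 were named after their values were seen. Tnfrsf17 was named although its mean CPM was below 1 in both groups. Of the listed symbols, H2-Ea, H2-DMb3, Marchf1, Marchf8, Fcmr, Jchain and Adgre1 did not match the table, and 3 of them were covered by an older symbol.

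Alternatives were the quasi-likelihood test, DESeq2, RLE, upper-quartile and total-count scaling, scaling to epithelial or pan-leukocyte markers, no filter, 10 counts in every mouse, other thresholds, a pseudocount of 0.5 for ratios, leaving out each mouse and a replicate block. The scripts were tested on simulated data. Results of some single genes are left out of the text.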

Additional observations from a re-analysis of the deposited data

Results flagged for a closer look

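The RPKM of each member and the 8 ratios between members were looked at for a single mouse far from the rest of its group, in 36 groups of values, and no mouse passed Dixon's criterion.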

How the results depend on the processing

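The median LFC of the 10 members stayed above 0 under every alternative run, between 0.16 with pan-leukocyte scaling and 0.81 without humanized mouse 5, and 0 members were lower at FDR below 0.01 under each of them. The number of members higher in humanized mice moved from 0 to 1 of 10 with DESeq2 (11% of all genes with an adjusted p) and to 2 at FDR below 0.05 (14%), and was 0 to 6 when each mouse was left out in turn, with 6 only without humanized mouse 5. The LFC of H2-Oa fell below 0 with total counts (−0.0099), epithelial markers (−0.011) and pan-leukocyte markers (−0.34), as did H2-Aa (−0.057) and H2-Ob (−0.32) with pan-leukocyte markers. With mice left out in turn the LFC ranged from −0.23 to 0.35 for H2-Oa and from −0.23 to 0.39 for H2-Ob, the lowest without humanized mouse 3, and the log2 ratio from −0.14 to 0.053 for Ciita to H2-Ab1, −0.029 to 0.078 for Cd74 to H2-Ab1 and −0.052 to 0.12 for H2-Ob to H2-Oa. With the replicate number as a block the quasi-likelihood test called 0 members, where 2.55% of tested genes were higher. In that fit H2-Oa had an LFC of −0.090 and H2-Ob one of −0.052, and 1 other gene of the class II region was called. Of 5 germ-free mice, 2 correlated best with the humanized mouse of their own number, and what equal numbers share is not known. Of the 8 other genes of the region, added after the data were seen, 2 were called with TMM, 1 with epithelial scaling, 0 with pan-leukocyte scaling and 2 to 3 with mice left out. Without division by length, 4 of 10 members kept their rank of level. With humanized mice alone, 3 of the 8 genes most like the members were shared. Calls on the other lists numbered 43, with 31 by the quasi-likelihood test, 47 with total counts, 39 with pan-leukocyte scaling and 35 to 59 with mice left out. Of all tested genes, 9.2% were higher and 10.1% lower with TMM, against 3.89% and 18.2% with total counts. The cause of these shifts was not tested. H2-Oa had 11 to 110 counts per mouse, and with 5 mice against 6 the intervals of most members are wide.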

Other observations

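Over 16069 genes with a mean CPM of at least 1, the deviations of log2 CPM from the group means were compared with those of H2-Aa, H2-Ab1, H2-Eb1 and Cd74 across the 11 mice, as a description without a test. The 8 genes most like the members were Mir5107 (r = 0.99), Lair1 (0.99), Cybb (0.98), Plxnc1 (0.98), Itgb8 (0.97), St8sia6 (0.97), Apbb1ip (0.97) and Fcgr3 (0.97). Mir5107 lies inside Cd74 and shares 12 exon bases with it, so its counts are not separate from those of Cd74. Cybb encodes a subunit of the phagocyte oxidase, and Fcgr3 and Lair1 encode receptors of leukocytes. Between the groups, Mir5107, Lair1 and Apbb1ip had LFC values of 0.59, 0.31 and 0.17, and St8sia6, Cybb, Plxnc1, Fcgr3 and Itgb8 had −0.06, −0.07, −0.48, −0.64 and −0.67, and none of the 8 was called. An r above 0.9 was found for 2.40% of the genes compared.

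Along the same axis the median r was 0.92 for macrophage markers, 0.90 for pan-leukocyte and for dendritic cell markers, 0.87 for fibroblast, 0.86 for endothelial, 0.76 for group 3 innate lymphoid cell, 0.75 for plasma cell, 0.70 for B cell and 0.54 for smooth muscle markers. It was 0.26 for T cell markers and −0.56 for epithelial markers.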
